A study of Mus musculus with 13 samples.

Results

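The cathepsins described here are 7 genes, Ctss, Ctsl, Ctsb, Ctsz, Ctsc, Ctsw and Ctsd, among the 21084 genes of the deposited count table. They were taken by gene symbol, and the family was chosen by the measured level of Ctss, which was higher with interferon alpha (IFNa) in both antibody arms of the study. The Ctss difference in those contrasts is therefore given as a description, with no p, and the other 6 genes entered as members of the same family. All 7 genes passed the filter on low counts.

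RNA was sequenced in bulk from gamma delta intraepithelial lymphocytes (IELs) that had been sorted from wild-type mouse small intestine, in 13 libraries. The IgG-PBS group (3 libraries) received Armenian hamster IgG and phosphate buffered saline (PBS), and the IgG-IFNa group (4 libraries) received the same IgG and 1 µg of IFNa. The UC7-PBS group (3 libraries) received PBS and UC7-13D5, which binds the T cell receptor of these cells, and the UC7-IFNa group (3 libraries) received UC7-13D5 and 1 µg of IFNa. Every mouse thus received an antibody, at 200 µg into the peritoneum, and the IFNa or PBS was given into a vein 5 h before the cells were isolated. The protocol labels place the antibody 48 and 24 h before isolation, whereas the design text names 48 or 24 h before IFNa. The sources used here state neither the age of the mice nor how many mice made up a library, so the p-values measure the spread between these libraries.

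Cathepsins are proteases of endosomes and lysosomes that are made as inactive precursors and activated in acidic compartments. Cathepsins S, L, B, Z, C and W are cysteine proteases of the papain family, and cathepsin D is an aspartic protease. In antigen-presenting cells cathepsin S trims the invariant chain from class II molecules, in cytotoxic lymphocytes cathepsin C activates the granzymes by removing a dipeptide, and cathepsin W is found mainly in natural killer cells and cytotoxic T cells. Gamma delta IELs are lymphocytes that lie between the epithelial cells of the gut and carry large amounts of granzymes.

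The libraries held 19867201 to 26895876 estimated counts, and the cathepsins together took 0.387% to 0.461% of a library. Among the sort's defining markers, Trdc, the gamma delta receptor constant gene, was present in every library (159 to 211 CPM, the counts scaled to a common library size), and Gzma averaged 30000 CPM. Genes listed as markers of other cells were also present, among them Trbc2 of the alpha beta T cell receptor (591 to 1390 CPM) and the epithelial gene Epcam (119 to 159 CPM). These lists were uneven. Trbc1 averaged 670 CPM and Trac 237, but Cd4 averaged 3.02 and Cd28 0.845. Cdh1 averaged 314 CPM, but Vil1 averaged 4.71 and Alpi 1.75. Whether these transcripts came from other cells was not tested. The second UC7-IFNa library stood apart, with 1.14% of its counts on ribosomal Rn18s against 0.0866% to 0.333% in the other libraries. Its correlations with the other libraries of its group were 0.94 and 0.943, against 0.973 to 0.984 within the rest of the groups. Sex-linked transcripts followed the antibody: Xist was at 265 to 345 CPM in IgG-PBS and at most 1.08 CPM in both UC7 groups, with Y-linked genes the other way around. In IgG-IFNa, libraries 1 and 2 had the Xist pattern (204 and 215 CPM) and libraries 3 and 4 had mostly Y-linked transcripts (210 and 320 CPM). With PBS, the antibody and the sex-linked pattern therefore cannot be told apart. With IFNa the pattern was mixed within the IgG arm. IFNa against PBS after IgG thus set 3 libraries with the Xist pattern against a mixed group, so the pattern goes in part with IFNa there. The interaction of antibody and IFNa includes that contrast.

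The stretch of DNA just before the Ctss start is shown because Ctss was the cathepsin chosen for its IFNa difference, and capitals mark its match to a core of the interferon-stimulated response element, GAAA and GAAA with any 2 bases between them. The 250 bases are on the plus strand of mouse chromosome 3 in build GRCm38.p6, from the RefSeq promoter table, which is another build than that of the count table.
Ctss, chr3:95526536-95526785: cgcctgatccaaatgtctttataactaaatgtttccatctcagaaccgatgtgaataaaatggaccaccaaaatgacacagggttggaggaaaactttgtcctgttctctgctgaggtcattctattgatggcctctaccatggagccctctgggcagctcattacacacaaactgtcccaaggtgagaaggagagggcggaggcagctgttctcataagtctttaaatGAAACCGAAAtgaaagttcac
The match lies 21 to 12 bases before the annotated start. The RefSeq table held promoters of 5 of the 7 cathepsins (Ctss, Ctsc, Ctsd, Ctsl and Ctsz), and with both strands searched, Ctss was the only one of these 5 with that core, which 2.98% of all 32851 promoter windows of the same length held. TTCNNNGAA, a core of the gamma-activated site, matched once in Ctsc and in 7.02% of all windows. TCACGTGA, a core of the element read by the lysosomal transcription factor Tfeb, matched once in Ctsd, 99 to 92 bases before its start, and in 0.785% of all windows. A match describes the letters only.

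Levels of the 7 genes spanned a wide range in these cells. Averaged over the 13 libraries and divided by the length of all annotated exons (GENCODE M21, GRCm38), Ctsw stood highest at 796.5 CPM per kilobase of exon, followed by Ctsd at 414.1 and Ctsc at 201.9. Ctsb was at 88.83, Ctss at 71.87 and Ctsz at 61.65 CPM per kilobase of exon, and Ctsl was lowest at 2.672. The ranges over libraries of Ctss (38.37 to 119), Ctsb (76.71 to 100.7) and Ctsz (53.09 to 78.11) overlapped, while those of Ctsl, Ctsc, Ctsd and Ctsw met no neighbour in that order. Divided instead by the length of the principal transcript, Ctsc stood at 470.4 CPM per kilobase, beside Ctsd at 457.7, so the order of these 2 depends on the length used. Ctsw remained highest (1211) and Ctsl lowest (8.797) on that scale. By unscaled mean CPM, Ctsw, Ctsc, Ctsd and Ctsb lay at or above the 98.6th percentile of the 15835 genes tested, and Ctsl lay at the 51.4th.

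**Figure D1:**
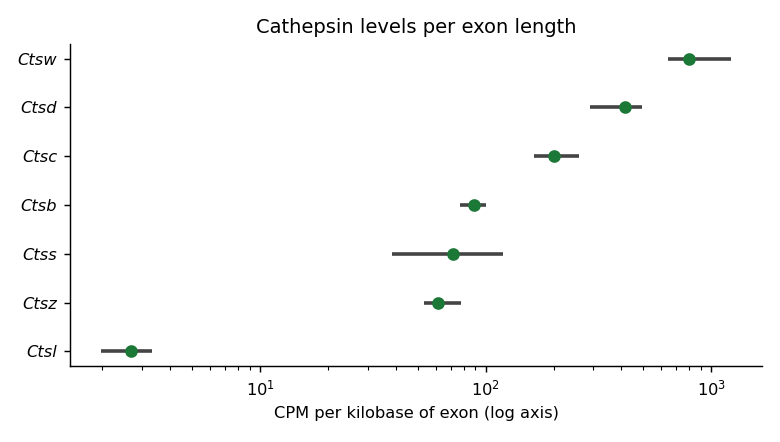
Levels of the 7 cathepsins per exon length on a log axis, in CPM per kilobase of exon. Points are means over 13 libraries and bars run from the lowest to the highest library; Ctsw (796.5) is highest and Ctsl (2.672) lies far below the other genes.

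Ctss encodes cathepsin S (ENSMUSG00000038642, mm39 chromosome 3, 95434097 to 95463714, plus strand). In IgG-PBS its level was 52.1, 67.96 and 55.58 CPM, and in IgG-IFNa it was 125.6, 125.8, 138.3 and 97.07 CPM. In UC7-PBS it was 71.15, 63.92 and 66.01 CPM, and in UC7-IFNa it was 110.1, 161.6 and 133.5 CPM. Each of the 7 libraries with IFNa lay above each of the 6 libraries with PBS. Within each arm alone, libraries were apart toward higher values with IFNa in 7.1% of all genes after IgG and in 5.9% after UC7-13D5. The share of all genes apart over both arms together was not counted. The group means in rising order were 58.5 ± 8.33 CPM in IgG-PBS (SD, n = 3), 67.0 ± 3.72 in UC7-PBS (SD, n = 3), 122 ± 17.5 in IgG-IFNa (SD, n = 4) and 135 ± 25.8 in UC7-IFNa (SD, n = 3). Neighbours in that order overlapped except UC7-PBS and IgG-IFNa.

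With IFNa against PBS, Ctss stood 2.08-fold higher after IgG (log2 fold change 1.06, SE 0.166, 95% interval 0.70 to 1.41). In the UC7-13D5 arm it stood 2.01-fold higher (log2 fold change 1.01, SE 0.175, 95% interval 0.64 to 1.38). Without the second UC7-IFNa library, the latter log2 fold change was 0.85 (SE 0.158). The difference between both arms, the interaction of antibody and IFNa, was -0.05 on the log2 scale (SE 0.237, 95% interval -0.55 to 0.46), and -0.20 (SE 0.209) without that library. The interval spans both a smaller and a larger difference after UC7-13D5.

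In bulk RNA, a change in the number of cells of a type and a change of RNA per cell cannot be told apart. Myeloid cells and dendritic cells express Ctss strongly, so the markers of these cells are given beside it. Of their 23 markers, 21 were in the table and 18 were tested. None passed edgeR's adjusted p of 0.05 in either IFNa contrast, and 4 (after IgG) and 9 (after UC7-13D5) had an unadjusted p below 0.05 (10.9% and 7.59% of all genes). DESeq2 called 1 and 0 of these markers, where it called 408 and 138 genes of the whole table, and limma called 0 of the 9 it could test. Their median log2 fold change was 0.76 after IgG and 0.82 after UC7-13D5, against -0.01 and 0.02 over all genes tested. Their summed level was 139 to 152 CPM in IgG-PBS, 130 to 191 in IgG-IFNa, 174 to 231 in UC7-PBS and 152 to 191 in UC7-IFNa, of which Itgax, an integrin gene that gut lymphocytes can also express, took 121 CPM on average. Leaving out Itgax, a step chosen after its level was seen, the sums were 31.7 to 41.6, 37.4 to 60.3, 40.0 to 48.6 and 58.3 to 64.7 CPM in the same order of groups. After Itgax, the markers with the highest average were Itgam (7.6 CPM), Lyz2 (7.36 CPM), C1qb (6.17 CPM), Xcr1 (4.1 CPM) and Batf3 (3.87 CPM). Csf1r averaged 3.65 CPM, Cd14 1.16 CPM and Adgre1 0.482 CPM. All of these were present in every library, whereas Flt3 was at 0 in 7 libraries and S100a8 was at 0 in 11. Of 15 markers of secretory epithelium, edgeR called 2 higher with IFNa after IgG (Zg16 and Fcgbp, both of goblet cells), where 0.619% of all genes were called higher. In that contrast 8 of the 15 had an unadjusted p below 0.05 (10.9% of all genes), DESeq2 called 3, and limma called 2 of the 14 it could test. After UC7-13D5 edgeR, DESeq2 and limma called 0, and 2 had an unadjusted p below 0.05 (7.59% of all genes). The median log2 fold change of the 15 markers was 1.24 after IgG and -0.35 after UC7-13D5. Their summed level was 98.4 to 649 CPM in IgG-PBS, 662 to 1320 in IgG-IFNa, 909 to 2190 in UC7-PBS and 382 to 1340 in UC7-IFNa. Of 9 alpha beta T cell markers, edgeR called 1 lower with IFNa after IgG (0.827% of all genes called in either direction). DESeq2 called 1 and limma 1 of the 6 it could test. After UC7-13D5 edgeR, DESeq2 and limma called 0. In each IFNa contrast 2 had an unadjusted p below 0.05 (10.9% and 7.59% of all genes). Of 7 B and plasma cell markers tested, 0 were called or had an unadjusted p below 0.05 in either. The part of all these cells in the Ctss difference was not tested.

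**Figure D2:**
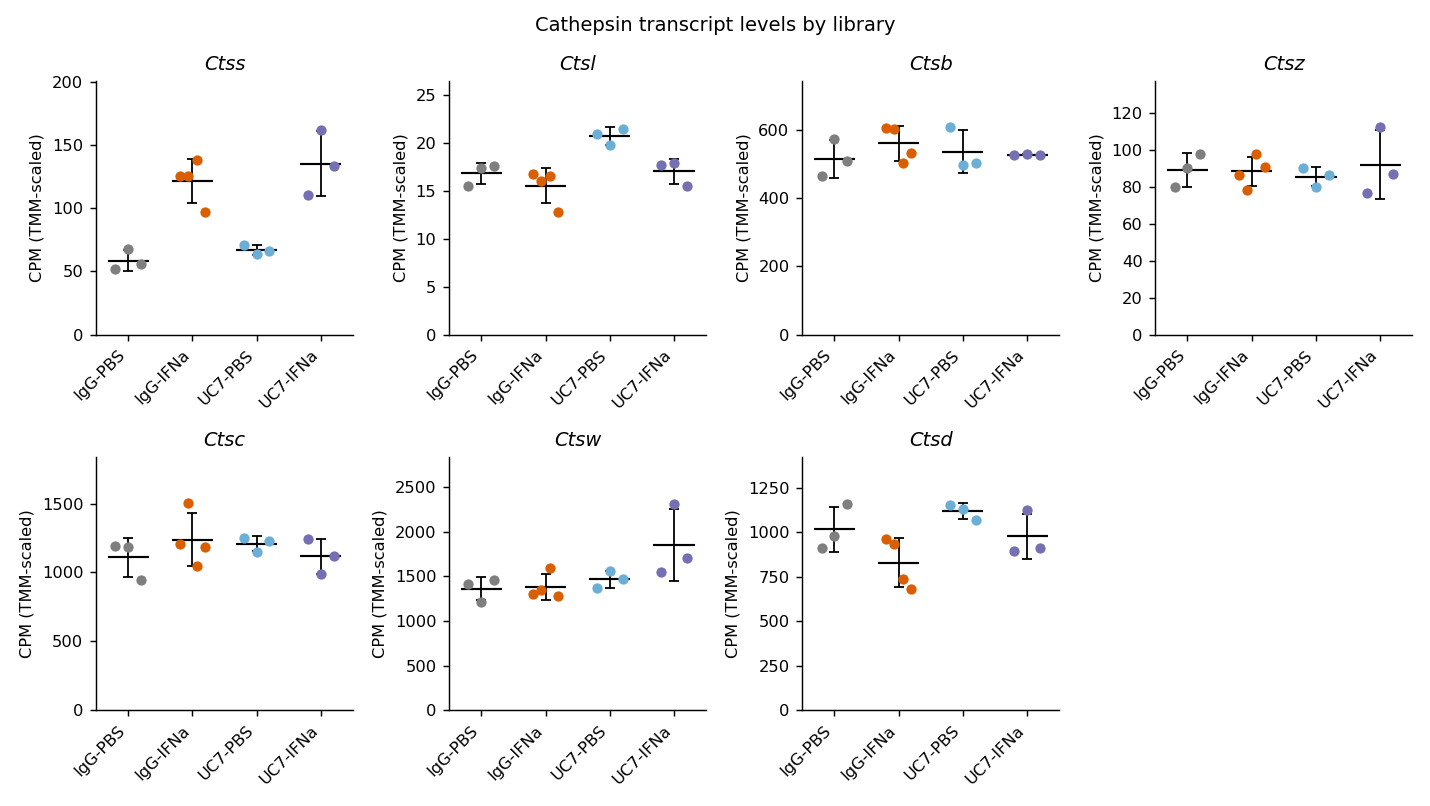
Levels of the 7 cathepsins in each library, in CPM after scaling between libraries, by group. Dots are libraries, horizontal lines are group means and bars are 1 SD (n = 3, 4, 3 and 3); in the Ctss panel every IFNa library (97.07 to 161.6) lies above every PBS library (52.1 to 71.15), while in the other panels most groups overlap.

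Ctsl encodes cathepsin L, an endopeptidase that trims the invariant chain in thymic epithelium (ENSMUSG00000021477, mm39 chromosome 13, 64507151 to 64518704, minus strand). Its level was 15.52, 17.32 and 17.51 CPM in IgG-PBS, 16.77, 15.99, 16.49 and 12.82 in IgG-IFNa, 20.86, 19.7 and 21.46 in UC7-PBS, and 17.64, 17.83 and 15.5 in UC7-IFNa. The 3 UC7-PBS libraries were higher than each of the other 10 libraries, and the share of all genes with such a joint separation was not counted. IFNa against PBS gave a log2 fold change of -0.11 (SE 0.150, 95% interval -0.43 to 0.20) after IgG, with overlapping libraries. After UC7-13D5 it was -0.28 (SE 0.161, 95% interval -0.63 to 0.06), with no overlap. With PBS, UC7-13D5 against IgG gave 0.30 (SE 0.160, edgeR adjusted p = 1), again with no overlap between libraries. Libraries were apart toward higher values in 6.6% of all genes in this comparison, and toward lower values with IFNa after UC7-13D5 in 6.09%. A model gene on the opposite strand, Gm47123, shares 1971 bases with the span of Ctsl, and the sources used here do not state whether the counting used strand.

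Ctsb encodes cathepsin B, which cuts within proteins and also removes dipeptides from their carboxyl end (ENSMUSG00000021939, mm39 chromosome 14, 63359911 to 63383372, plus strand). Its level was 464.2, 575 and 510.2 CPM in IgG-PBS, 606.5, 602.3, 503.2 and 532.2 in IgG-IFNa, 609.4, 497.4 and 504.5 in UC7-PBS, and 527.9, 529 and 525.8 in UC7-IFNa. All 4 groups overlapped in their neighbours. The IFNa difference was 0.12 on the log2 scale (SE 0.133, 95% interval -0.16 to 0.40) after IgG and -0.03 (SE 0.142, 95% interval -0.33 to 0.28) after UC7-13D5. The span of Ctsb shares 774 bases with Fdft1 on the other strand, a gene at 79.4 CPM, so part of its reads could be split between them.

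Ctsz encodes cathepsin Z, also called cathepsin X, a carboxypeptidase (ENSMUSG00000016256, mm39 chromosome 2, 174269286 to 174280832, minus strand). It was at 79.78, 90.12 and 98.17 CPM in IgG-PBS, 86.72, 78.55, 97.85 and 90.64 in IgG-IFNa, 90.16, 79.94 and 86.64 in UC7-PBS, and 76.5, 112.6 and 87.23 in UC7-IFNa. Its group means ran from 85.6 to 92.1 CPM, and all neighbours overlapped. The highest value came from the second UC7-IFNa library, the one that stood apart. The IFNa difference was -0.01 (SE 0.148, 95% interval -0.33 to 0.30) after IgG and 0.10 (SE 0.158, 95% interval -0.23 to 0.44) after UC7-13D5. Without that library the latter value was -0.07 (SE 0.137).

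Ctsc encodes cathepsin C, or dipeptidyl peptidase I, the activator of granzymes (ENSMUSG00000030560, mm39 chromosome 7, 87927293 to 87960096, plus strand). It was at 1195, 1183 and 948.3 CPM in IgG-PBS, 1209, 1505, 1048 and 1183 in IgG-IFNa, 1249, 1148 and 1228 in UC7-PBS, and 1244, 985.4 and 1118 in UC7-IFNa. The groups overlapped, and the IFNa difference was 0.16 (SE 0.150, 95% interval -0.16 to 0.48) after IgG and -0.12 (SE 0.160, 95% interval -0.46 to 0.23) after UC7-13D5. The latter was -0.04 (SE 0.154) without the second UC7-IFNa library. Of the 16 granule proteases listed as its possible substrates, 8 were in the table, 5 were tested and none passed in any comparison by edgeR, DESeq2 or, for the 4 it could test, limma. At an unadjusted p below 0.05 there was 1 after IgG (10.9% of all genes) and 1 after UC7-13D5 (7.59%) with IFNa, and for UC7-13D5 against IgG there were 0 with PBS (5%) and 1 with IFNa (7.19%). Gzmb, which averaged 12500 CPM, had a log2 fold change with IFNa after IgG of 0.30 (SE 0.121, edgeR adjusted p = 0.36), and its libraries did not overlap there, as was so toward higher values for 7.1% of all genes. Gzmk, at 178 CPM, had 0.60 (SE 0.266, edgeR adjusted p = 0.661) for UC7-13D5 against IgG with IFNa.

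Ctsw encodes cathepsin W of cytotoxic lymphocytes (ENSMUSG00000024910, mm39 chromosome 19, 5515071 to 5518535, minus strand). It was at 1416, 1212 and 1456 CPM in IgG-PBS, 1300, 1341, 1591 and 1274 in IgG-IFNa, 1364, 1562 and 1468 in UC7-PBS, and 1547, 2309 and 1700 in UC7-IFNa. The library at 2309 CPM is again the second of UC7-IFNa. IFNa against PBS gave 0.02 (SE 0.154, 95% interval -0.31 to 0.34) after IgG and 0.34 (SE 0.165, 95% interval -0.01 to 0.69) in the UC7-13D5 arm. With IFNa, UC7-13D5 against IgG gave 0.43 (SE 0.153, edgeR unadjusted p = 0.0133, adjusted p = 0.517). Without the second UC7-IFNa library these last 2 differences were 0.14 (SE 0.136) and 0.23 (SE 0.129, edgeR adjusted p = 0.894).

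Ctsd encodes cathepsin D, the aspartic protease (ENSMUSG00000007891, mm39 chromosome 7, 141929648 to 141941775, minus strand). It was at 913.4, 976.2 and 1158 CPM in IgG-PBS, 963.8, 934.1, 738.7 and 682.9 in IgG-IFNa, 1154, 1133 and 1071 in UC7-PBS, and 894.2, 1123 and 912 in UC7-IFNa. The lowest values were those of IgG-IFNa libraries 3 and 4, the 2 libraries of that group with mostly Y-linked transcripts. IFNa against PBS gave -0.29 (SE 0.154, 95% interval -0.62 to 0.04) after IgG and -0.20 (SE 0.165, 95% interval -0.55 to 0.16) after UC7-13D5. Without IgG-IFNa libraries 3 and 4 the value after IgG was -0.10 (SE 0.166), and without the second UC7-IFNa library the value after UC7-13D5 was -0.32 (SE 0.159). Ctss without IgG-IFNa libraries 3 and 4 stood 1.10 higher on the log2 scale with IFNa after IgG.

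**Figure D3:**
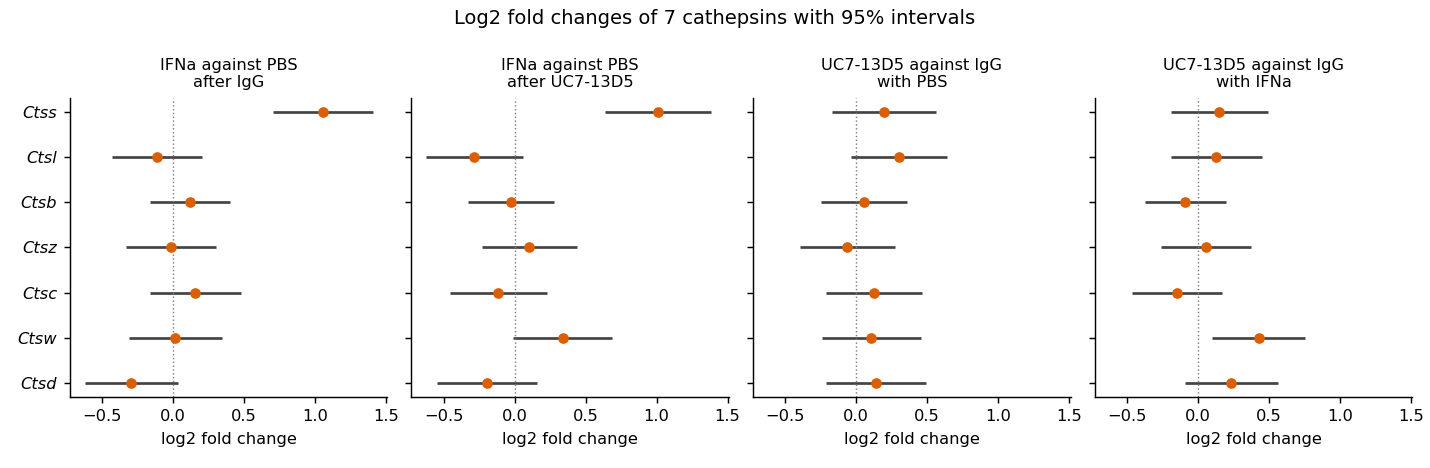
Log2 fold changes of the 7 cathepsins in 4 comparisons, with 95% intervals from the edgeR fit over 13 libraries. Ctss lies at 1.06 and 1.01 in the IFNa comparisons, which were used to choose the family, and all other points lie between -0.29 and 0.43.

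Ctss passed the threshold with IFNa in both arms (edgeR adjusted p below 0.05), and the family was chosen on that difference, so the counts that include it describe the choice and test nothing. After IgG the count was 1 of 7 cathepsins, where 0.827% of all genes were called and 0.619% of all genes were called higher. After UC7-13D5 the count was 1 of 7, where 0.36% of all genes were called and 0.335% called higher. None of the other 6 genes passed in either contrast by edgeR, DESeq2 or limma, nor at an unadjusted p below 0.05. The count after IgG fell to 0 without IgG-PBS library 1 or 3, where the Ctss log2 fold change was 0.98 and 1.02. After UC7-13D5 it fell to 0 without UC7-PBS library 1, 2 or 3, with Ctss at 1.05, 0.98 and 1.00. With only the 2 groups compared in the fit, the count after UC7-13D5 was also 0, with Ctss at 0.995.

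The antibody comparisons did not enter the choice of the family, and no cathepsin was called in them. With PBS, 0 of 7 passed by edgeR (0 at an unadjusted p below 0.05, 0 by DESeq2, 0 by limma), where 0.00632% of all genes were called and 5% had an unadjusted p below 0.05. Ctss had a log2 fold change of 0.20 for UC7-13D5 against IgG with PBS (SE 0.173, 95% interval -0.17 to 0.56, edgeR adjusted p = 1), and the other 6 genes lay between -0.06 and 0.30. With IFNa, 0 of 7 passed by edgeR (1 at an unadjusted p below 0.05, Ctsw, and 0 by DESeq2 or limma), where 0.0758% of all genes were called and 7.19% had an unadjusted p below 0.05. There Ctss had 0.15 (SE 0.161, 95% interval -0.19 to 0.49, edgeR adjusted p = 0.82), and -0.01 (SE 0.152) without the second UC7-IFNa library. Ctsd had 0.23 (SE 0.154, edgeR adjusted p = 0.747) and Ctsc -0.15 (SE 0.150, edgeR adjusted p = 0.817), and the intervals of both include 0. Without the second UC7-IFNa library they had 0.11 (SE 0.149) and -0.08 (SE 0.147). No interaction of antibody and IFNa was called for the 6 genes other than Ctss by edgeR, DESeq2 or limma, nor had any an unadjusted p below 0.05 (0 of 6). No gene of the whole table was called by edgeR there (0%), and 3.17% had an unadjusted p below 0.05. The interaction of Ctsw was 0.32 (SE 0.225, edgeR adjusted p = 1), and 0.13 (SE 0.178) without the second UC7-IFNa library.

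Genes that act together with the cathepsins are given as lists, all chosen with earlier results of these data known. Other cathepsins numbered 16, of which 6 were in the table and 5 were tested (Ctsa, Ctse, Ctsf, Ctsh and Ctso). In any comparison 0 were called by edgeR, DESeq2 or, for the 4 it could test, limma. There was 1 at an unadjusted p below 0.05 in each IFNa contrast. Over all genes that share was 10.9% after IgG and 7.59% after UC7-13D5. Ctse, an aspartic protease at 4.41 CPM, had a log2 fold change of -1.52 with IFNa after UC7-13D5 (SE 0.469, edgeR adjusted p = 0.393). Ctsf, at 0.414 CPM, had 2.09 after IgG (SE 0.928, edgeR adjusted p = 0.419).

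Among 16 cathepsin inhibitors, 9 were in the table and 8 were tested, and edgeR called none in any comparison. At an unadjusted p below 0.05 there was 1 in each IFNa contrast (10.9% of all genes after IgG and 7.59% after UC7-13D5) and 2 in each antibody contrast (5% with PBS and 7.19% with IFNa). DESeq2 called 1 for UC7-13D5 against IgG with IFNa, where it called 118 genes of the whole table. Of the 7 inhibitors it could test, limma called 0. Serpinb6a, a serpin that can inhibit cathepsin G, had log2 fold changes of -0.41 (SE 0.142, edgeR adjusted p = 0.263) and -0.48 (SE 0.153, edgeR adjusted p = 0.4) with IFNa after IgG and after UC7-13D5, with no overlap of libraries in either. Such a lack of overlap toward lower values was seen for 6.91% and 6.09% of all genes. Ctla2a and Ctla2b, which resemble the propeptide of cysteine cathepsins, are also on this list. Ctla2a had -1.58 for UC7-13D5 against IgG with PBS (SE 0.443, edgeR adjusted p = 0.419) and Ctla2b had -0.92 with IFNa (SE 0.246, edgeR adjusted p = 0.26).

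Lysosomal genes outside the cathepsins were not called by edgeR in any of the comparisons. This held for 19 genes of sorting and trafficking, 34 hydrolases and activators, 23 membrane proteins and 4 transcription factors that were tested. At an unadjusted p below 0.05 there were 2, 5, 2 and 0 of them with IFNa after IgG and 1, 6, 3 and 0 after UC7-13D5, beside 10.9% and 7.59% of all genes. DESeq2 called 1, 1, 1 and 0 after IgG and 0 after UC7-13D5 in each list, where it called 408 and 138 genes of the whole table. For UC7-13D5 against IgG the unadjusted counts were 0, 1, 3 and 0 with PBS (5% of all genes) and 0, 3, 1 and 0 with IFNa (7.19%). DESeq2 called 1 membrane protein with IFNa, where it called 118 genes of the whole table. limma called 0 of the 18, 33, 21 and 3 genes it could test. Their median log2 fold changes with IFNa lay between -0.04 and 0.01 after IgG and between -0.05 and 0.07 after UC7-13D5, against -0.01 and 0.02 over all genes. Gnptab, which makes the mannose 6-phosphate tag that carries cathepsin precursors to the lysosome, had 0.91 with IFNa after IgG (SE 0.229, edgeR adjusted p = 0.0917). Cd63, a tetraspanin of late endosomes at 3.35 CPM, had 1.27 there (SE 0.315, edgeR adjusted p = 0.0841). Acp5, an acid phosphatase at 125 CPM, had -0.82 there (SE 0.213, edgeR adjusted p = 0.103). Lamp1, the lysosomal membrane glycoprotein, had 1.40 with UC7-13D5 against IgG with PBS (SE 0.390, edgeR adjusted p = 0.419) and 1.77 with IFNa (SE 0.359, edgeR adjusted p = 0.0746). The libraries of both antibodies did not overlap for Lamp1 in either comparison (6.6% and 3.73% of all genes were apart toward higher values), and with PBS the sex-linked pattern followed the antibody.

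Class II presentation, in which cathepsin S acts, was represented by 13 genes, 12 of them tested. edgeR, DESeq2 and limma (8 genes) called 0 in any comparison, with 2 at an unadjusted p below 0.05 in each IFNa contrast (10.9% and 7.59% of all genes), 1 for UC7-13D5 against IgG with PBS (5%) and 0 with IFNa (7.19%). H2-Ab1, a class II beta chain at 50.0 CPM, had 0.78 with IFNa after UC7-13D5 (SE 0.252, edgeR adjusted p = 0.434). Lgmn, a lysosomal protease that also processes cathepsin precursors, had 0.98 after IgG at a level of 2.86 CPM (SE 0.347, edgeR adjusted p = 0.272).

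**Figure D4:**
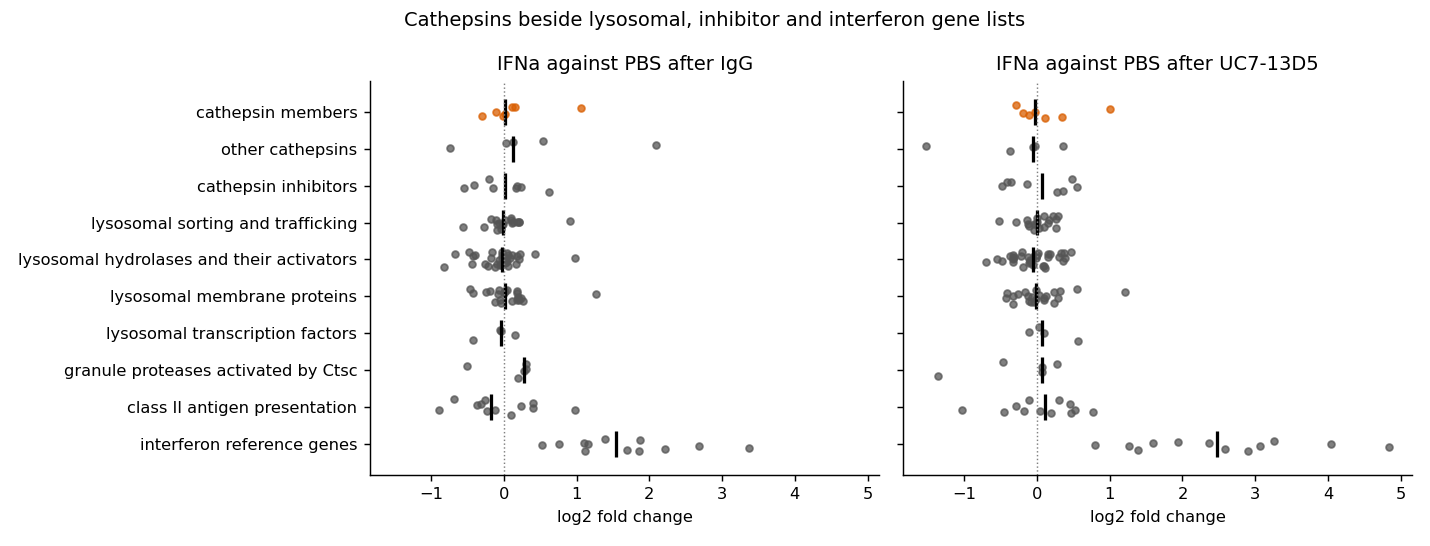
Log2 fold changes of the cathepsins and of 9 other gene lists with IFNa against PBS, after IgG and after UC7-13D5. Dots are tested genes and black bars are medians; the cathepsin median is 0.02 and -0.03 with Ctss apart at 1.06 and 1.01, and the interferon reference genes have medians of 1.54 and 2.48.

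Interferon-stimulated genes gave the scale for the Ctss difference. Of 12 reference genes, chosen with earlier results of these data known, edgeR called 9 higher after IgG (0.619% of all genes) and 11 higher after UC7-13D5 (0.335%). Their medians were 1.54 and 2.48 on the log2 scale. Ifit3, an antiviral effector, rose by 3.37 (SE 0.327, edgeR adjusted p = 0.000135) after IgG and by 4.84 (SE 0.365) after UC7-13D5. Irf7, the transcription factor that amplifies interferon production, rose by 1.40 (SE 0.163, edgeR adjusted p = 0.000793) and by 1.94 (SE 0.174). The Ctss values of 1.06 and 1.01 lay within the range of the 12 genes in both arms (0.52 to 3.37 and 0.79 to 4.84). Over all 13 libraries, the interaction values of the 12 ranged from 0.27 to 1.91, with a median of 0.72, whereas that of Ctss was -0.05. These interactions include the second UC7-IFNa library, the one that stood apart, and the IgG arm, where the sex-linked pattern goes in part with IFNa. Without that library the value of Ctss was -0.20, and those of the 12 are not given here. None of the 12 was called by edgeR, DESeq2 or limma, and 8 had an unadjusted p below 0.05 (3.17% of all genes). For UC7-13D5 against IgG, the 12 had a median log2 fold change of -0.36 with PBS (-1.07 to -0.07) and 0.37 with IFNa (0.05 to 1.13). edgeR called 0 in both, and 2 and 5 had an unadjusted p below 0.05 (5% and 7.19% of all genes). The interaction thus includes lower values with PBS, where the antibody and the sex-linked pattern cannot be told apart. The difference between Ctss and these genes was not tested.

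The genes whose levels over the 13 libraries were most like those of Ctss were sought among 8639 genes, by Pearson's r of log2 CPM. They were Ube2l6 (r = 0.952), an enzyme that conjugates ISG15, Ifi27l2a (0.939), H2-T23 (0.928), which encodes the nonclassical class I molecule Qa-1, Bst2 (0.924), which tethers virus particles, and Lgals3bp (0.922), a secreted glycoprotein. The libraries fall into IFNa and PBS groups and share depth and composition, so r describes mostly that split. Ube2l6 ran from 31.6 to 42.5 CPM over the 6 PBS libraries, from 63.8 to 87.5 CPM in IgG-IFNa and from 96.2 to 162 CPM in UC7-IFNa. Its log2 fold change with IFNa was 1.04 (SE 0.193) after IgG, beside 1.06 for Ctss, and 1.67 (SE 0.206) after UC7-13D5, beside 1.01 for Ctss. H2-T23, at 839 to 975 CPM with PBS, had 0.64 (SE 0.132) and 0.79 (SE 0.140). Bst2 had 1.69 (SE 0.211) and 2.58 (SE 0.227), Lgals3bp had 1.15 (SE 0.185) and 1.76 (SE 0.198), and Ifi27l2a had 3.27 (SE 0.376) and 3.71 (SE 0.395). The values after UC7-13D5 include the second UC7-IFNa library, the one that stood apart. That library held the highest UC7-IFNa level of Ube2l6 (162 CPM, others 96.2 and 105) and Bst2 (172, others 116 and 110). The same was so for Ifi27l2a (257, others 102 and 119) and H2-T23 (1750, others 1560 and 1490), but not for Lgals3bp. The interactions of these 5 genes lay between 0.15 and 0.89, each with an edgeR adjusted p of 1. Those of Bst2 (0.89, edgeR unadjusted p = 0.00815), Lgals3bp (0.61, 0.0337) and Ube2l6 (0.62, 0.0383) had an unadjusted p below 0.05, as did 3.17% of all genes.

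**Figure D5:**
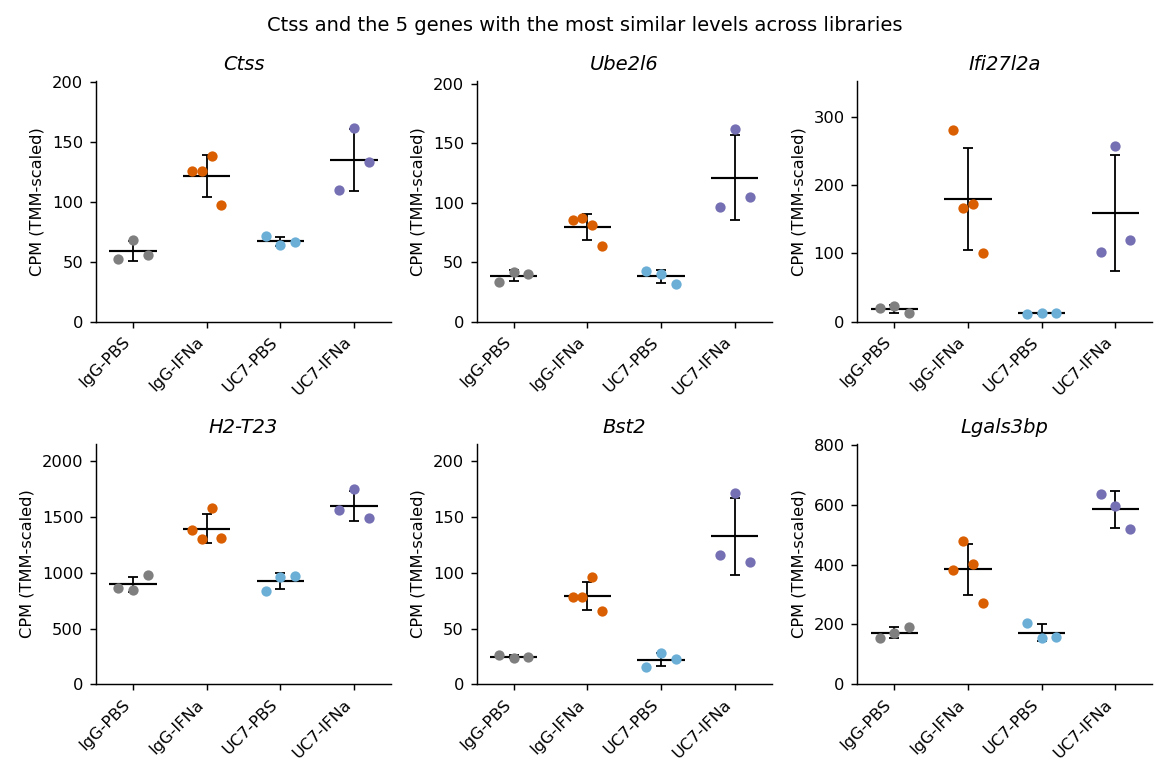
Levels of Ctss and of the 5 genes most like it over the 13 libraries, in CPM by group. Dots are libraries, lines are means and bars are 1 SD. In each panel the IFNa libraries lie above the PBS libraries. Ube2l6 is at most 87.5 CPM in IgG-IFNa and is at 96.2, 162 and 105 CPM in UC7-IFNa, with 162 in the second library, the one that stood apart.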

How the data were processed

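The authors deposited unscaled expected counts for 21084 genes. A second deposited table held a normalized signal for 11281 genes, which equalled the counts divided by 1 factor per library, and served only for an alternative. STAR 2.7.8a, Partek, DESeq2 and mm39 appear in the submitters' processing notes with no role stated. Groups came from the sample titles.

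Counts were rounded, genes were filtered with filterByExpr at a minimum count of 10 (15835 tested), and libraries were scaled by TMM. edgeR 4.0.16 (R 4.3.3) fitted 1 coefficient per group over all 13 libraries with its robust quasi-likelihood test, two-sided, with Benjamini-Hochberg adjustment over all genes and a threshold of 0.05. SE is the log2 fold change divided by the root of F. CPM used TMM-scaled totals, except for Xist and the Y-linked genes, whose CPM used unscaled totals. DESeq2 1.42.0 and limma 3.58.1 (log2 of deposited signal plus 1) were alternatives. The procedure was tested on simulated data.

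The cathepsins and the gene lists were chosen with earlier results of these data known. Named genes were all 7 cathepsins, up to 4 called genes per list and comparison with the smallest p (up to 2 where none was called), the most abundant markers and those at 0, and the 5 genes most like Ctss above a mean log2 CPM floor of 3. The text gives a part of these, and a few further markers beside them. Promoter windows were searched by letters in RefSeq sequences of GRCm38.p6.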

Additional observations from a re-analysis of the deposited data

How the results depend on the processing

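The 35 cathepsin values (7 genes, 5 comparisons) were recomputed under up to 22 alternatives, and of 763 recomputed values 733 kept their sign. No cathepsin gained a call, and only Ctss lost its call under some alternatives. The IFNa contrasts chose the family on Ctss, so its values there are a description: its log2 fold change ranged from 0.98 to 1.18 after IgG and from 0.854 to 1.14 after UC7-13D5 when single libraries were left out. The Ctss interaction changed sign without IgG-PBS 1 (0.0299), IgG-IFNa 3 (0.0218) or UC7-IFNa 1 (0.0787), had a range of -0.203 to 0.0787 over the omissions, and was -0.28 with the Y-linked share as covariate and UC7-IFNa 2 left out. Counts of cathepsins called ranged from 0 to 1 over the omissions in both IFNa contrasts, and the count after UC7-13D5 was 0 with only the groups compared.

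Counts of all genes called (131 and 57 with IFNa after IgG and after UC7-13D5, 1 and 12 for UC7-13D5 with PBS and with IFNa, 0 for the interaction) moved more. DESeq2 gave 408, 138, 64, 118 and 2. Fits of only the groups compared gave 343, 22, 19 and 0, and limma 2 for UC7-13D5 with IFNa. The Y-linked share as covariate gave 23 after IgG and 5 for UC7-13D5 with IFNa, and, with UC7-IFNa 2 left out too, 140 after UC7-13D5 and 41 for UC7-13D5 with IFNa. Without IgG-IFNa 3 and 4 they were 21 after IgG and 5 and 6 for UC7-13D5 with PBS and with IFNa, and without the filter 0 for UC7-13D5 with PBS. Over single omissions the ranges were 24 to 430, 29 to 110, 0 to 4, 0 to 52 and 0 to 1. The causes of these shifts were not tested. Replicate numbers recur across groups, but 2 of 18 same-numbered pairs had a correlation of deviations over 0.1 (range -0.21 to 0.135). In 3 of these 18 pairs, the library of the first group correlated best with its own number in the second group. The fit with the replicate block gave 27, 34, 1, 1 and 0 genes and changed no cathepsin call.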
